A study of Homo sapiens with 4 samples.

Results

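The genes described here are 4 cadherins, CDH1, CDH2, CDH3 and CDH5, and 6 transcription factors of the epithelial-mesenchymal transition (EMT), SNAI1, SNAI2, TWIST1, TWIST2, ZEB1 and ZEB2. They were taken by gene symbol from the annotation of the array platform. Of the 10 genes, 8 had a row in the table, 1 row each, out of 15073 named genes and 42152 rows in all. TWIST2 and ZEB1 had no named row and were not analysed here.

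Cadherins are calcium-dependent adhesion receptors that hold neighbouring cells together at adherens junctions, where their tails bind catenins and, through them, actin. CDH1 (E-cadherin) is the cadherin of most epithelia, CDH3 (P-cadherin) is typical of basal squamous cells, CDH2 (N-cadherin) of neural and mesenchymal cells, and CDH5 (VE-cadherin) of the endothelium of blood vessels. SNAIL (SNAI1), SLUG (SNAI2) and the ZEB proteins bind E-box sequences and repress CDH1 and other epithelial genes, while TWIST1 is a basic helix-loop-helix factor that also binds E-boxes; a switch from E-cadherin to N-cadherin under these factors is a textbook sign of EMT.

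The arrays carried RNA from CAL-27, a cell line grown from a human squamous carcinoma of the tongue. The study set the parental line, grown without a stated drug treatment (2 arrays), against a derivative selected for resistance by exposure to cisplatin, a DNA-crosslinking drug, at doses raised stepwise from 1e-07 M to 1e-05 M (2 arrays). Both were kept in DMEM with fetal bovine serum, and the series calls the arrays of a group biological replicates. Whether the resistant cells came from 1 clone or several, and whether the drug was present when RNA was taken, is not given in the sources used here. The comparison asks which transcripts separate the drug-resistant line from its parent. Each value below is a normalized intensity, whose log2 is compared as resistant minus parental. The p-values set that difference against the spread between arrays within the groups, which the main test moderates with a prior drawn from all genes. They speak for these 4 arrays only.

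Median intensities lay between 141.2 and 149.9 per array, and log2 values of the 15073 genes correlated at 0.956 between the parental and 0.969 between the resistant replicates. Squamous identity of the parental cells was clear in the markers: 13 of 14 measured squamous genes lay above the upper quartile of both parental arrays. In the resistant arrays 8 of 14 did. Of the 14 genes 9 fell, where 2.83% of all genes did, and 5 did not pass. KRT14 was lower by a log2 difference of -6.28 ± 0.19 (difference ± SE, adjusted p = 0.0165). KRT5, among those 5, still read 36686 and 42290 in the resistant arrays. The squamous label holds less well there, though not for every marker. The summed intensity of the 14 markers was 301783 to 305418 in parental and 124245 to 130835 in resistant arrays. Because the material is bulk RNA, fewer cells of a type and less RNA per cell cannot be told apart.

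Promoter sequences are shown for the measured members that the RefSeq promoter table holds, CDH2 and ZEB2, and for CDH4, a relative of CDH2 that rose, because E-boxes are the sites at which the transcription factors described here act. Each line runs 5′ to 3′ over 300 bases, from 250 before to 50 after the annotated start, in RefSeq's build GRCh38.p14, and capitals mark matches to the E-box pattern CANNTG, which reads the same on both strands. The CDH2 stretch is chr18:28177081-28177380 on the minus strand, that of ZEB2 chr2:144520070-144520369 on the minus strand, and that of CDH4 chr20:61499171-61499470 on the plus strand.
CDH2: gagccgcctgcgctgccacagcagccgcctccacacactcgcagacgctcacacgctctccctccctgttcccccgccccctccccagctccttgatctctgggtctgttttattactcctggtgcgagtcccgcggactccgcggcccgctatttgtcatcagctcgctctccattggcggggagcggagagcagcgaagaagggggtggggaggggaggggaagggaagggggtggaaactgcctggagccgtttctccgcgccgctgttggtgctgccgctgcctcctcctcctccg
ZEB2: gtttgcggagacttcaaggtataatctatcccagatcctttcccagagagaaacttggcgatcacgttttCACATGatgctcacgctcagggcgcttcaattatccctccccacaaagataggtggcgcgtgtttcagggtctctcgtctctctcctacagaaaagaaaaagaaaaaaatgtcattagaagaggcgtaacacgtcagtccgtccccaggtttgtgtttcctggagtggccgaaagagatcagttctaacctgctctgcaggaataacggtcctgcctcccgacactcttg
CDH4: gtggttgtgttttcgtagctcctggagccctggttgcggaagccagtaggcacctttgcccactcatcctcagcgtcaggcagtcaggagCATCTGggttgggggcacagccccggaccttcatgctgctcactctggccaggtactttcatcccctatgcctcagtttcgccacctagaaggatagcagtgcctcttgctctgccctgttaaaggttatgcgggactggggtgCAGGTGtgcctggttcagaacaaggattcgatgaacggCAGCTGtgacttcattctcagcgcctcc
CDH2 had 0 matches to CANNTG in this window, ZEB2 had 1 and CDH4 had 3, 1 of which read CAGGTG, the form preferred by SNAIL and ZEB proteins. For comparison, 68.7% of 35116 promoters of this length in the table held CANNTG and 20.6% held CAGGTG on either strand. Only the first entry of a gene in that table was used, so other starts of CDH2, ZEB2 or CDH4 are not covered. The matches describe letters only, and binding was not measured.

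CDH5 was the 1 member of the 8 that rose, where 6.1% of all genes passed in either direction. Its intensity was 14.3 and 24.7 in the parental arrays and 559 and 667 in the resistant arrays. The parental values lay close to the bottom of the scale, with 0.845% and 9.09% of the rows of those arrays dimmer, whereas in the resistant arrays 73.2% and 75.7% of rows were dimmer. On the log2 scale the means were 4.23 ± 0.56 (SD, n = 2) and 9.25 ± 0.18 (SD, n = 2), a difference of 5.02 ± 0.34 (difference ± SE) with a 95% interval from 4.06 to 5.98 and an adjusted p of 0.0171 in limma's test over all genes. The closest resistant and parental arrays were 4.50 apart, against a gap of 0.79 between the parental and of 0.25 between the resistant replicates. The nominal fold of 32.5 depends on the dim parental values: with 16 intensity units added before the logarithm, the difference was 4.16 (adjusted p = 0.0068). A larger rise was seen in 5 of 15073 genes, and in 13 with that offset, and of 92 genes at or below the parental mean of CDH5, 1 reached its resistant mean, CDH5 itself.

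The call of CDH5 did not hold in every setting, but in the settings that lost it no other gene passed either. The loss is therefore not particular to CDH5. The call was lost when any 1 array was left out, with differences between 4.63 and 5.41. It was also lost when all 42152 rows were tested together, a test in which 0 rows passed although 18.7% of rows had an unadjusted p under 0.05. There the adjusted p of CDH5 was 0.0606, equal to the smallest of any row. An unmoderated test with unequal variances gave an adjusted p of 0.358. When limma's variance prior was instead allowed to vary with brightness (the trended prior below), the adjusted p was 0.000246, and it lay between 0.000805 and 0.00581 with each array left out.

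**Figure D1:**
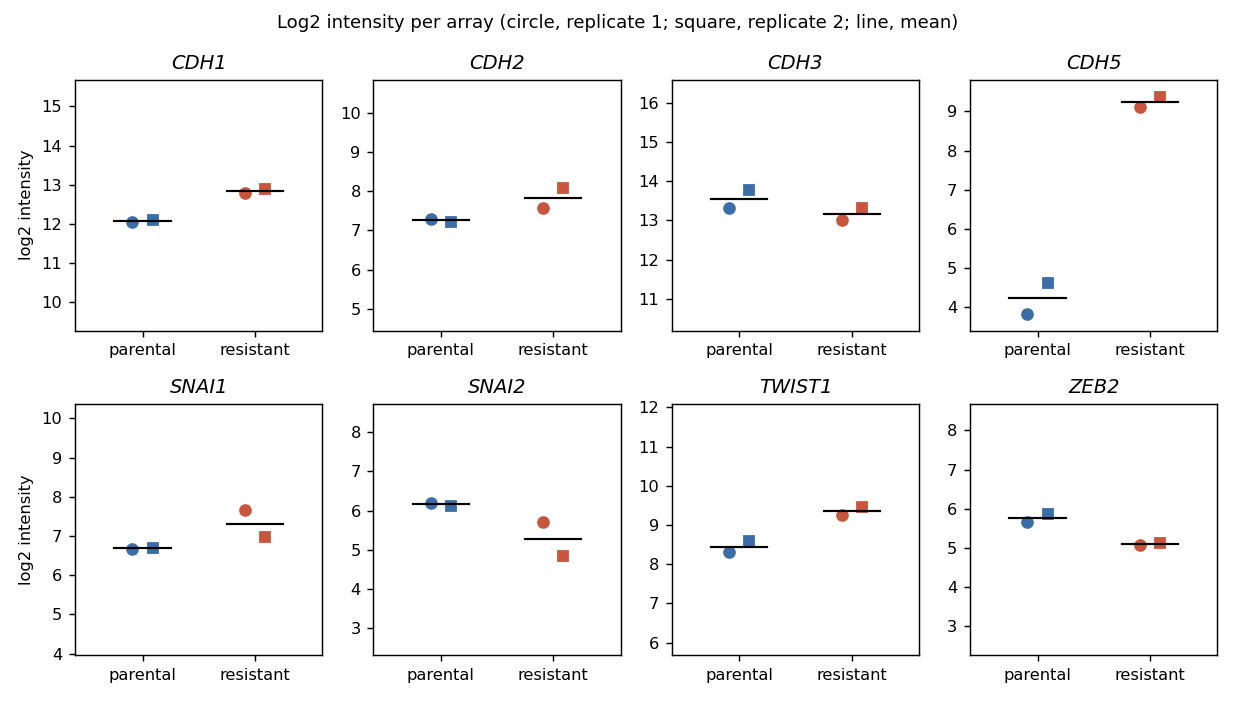
Log2 intensity of the 8 measured members on each of the 4 arrays, with parental arrays in blue and resistant arrays in red, circles for replicate 1, squares for replicate 2 and a line at the mean; each panel spans the same number of log2 units. CDH5 moves from 3.84 and 4.63 to 9.13 and 9.38, while the means of the other 7 members differ by less than 1.

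Most other markers of endothelium did not pass the test. Of 21 measured endothelial markers, NOS3, the endothelial nitric oxide synthase, rose by 1.82 ± 0.23 (adjusted p = 0.0382), 0 fell and 20 did not pass. Their median difference was 0.38, against -0.03 over all genes. Under the trended prior 2 were higher and 3 lower, where 21.5% of all genes passed. NOS3 was dim, at 32.9 and 31.3 in parental and 131 and 98.4 in resistant arrays, below the median of each array. The 1 call of 21 endothelial markers lies near the 6.1% of all genes. Their summed intensity was 3634 to 4180 in parental and 3052 to 3289 in resistant arrays, but a single gene carried much of it: SOX7, an endothelial transcription factor, read 2220 and 2591 in parental and 1292 and 1581 in resistant arrays. Without SOX7 the sum was 1414 to 1589 in parental and 1707 to 1759 in resistant arrays, the opposite order. The lowest of them read 13.8 in parental replicate 1, where the dimmest row of that array read 9.40. The receptor gene KDR lay at 47.7 and 51.4 in parental and at 38.3 and 27.5 in resistant arrays, below the lower quartile of 3 of the 4 arrays. PECAM1, another adhesion receptor of endothelium, was at 35.9 and 40.2 in parental and at 22.5 and 110 in resistant arrays, so its groups overlapped. MMRN2, a matrix protein of vessels, differed by -2.15 ± 0.33 (adjusted p = 0.0501), ERG, an ETS factor of endothelium, by -1.25 ± 0.23 (adjusted p = 0.0665), and the adhesion gene ICAM2 by 1.60 ± 0.30 (adjusted p = 0.0669). The part of endothelial cells in the rise of CDH5 was not tested.

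**Figure D2:**
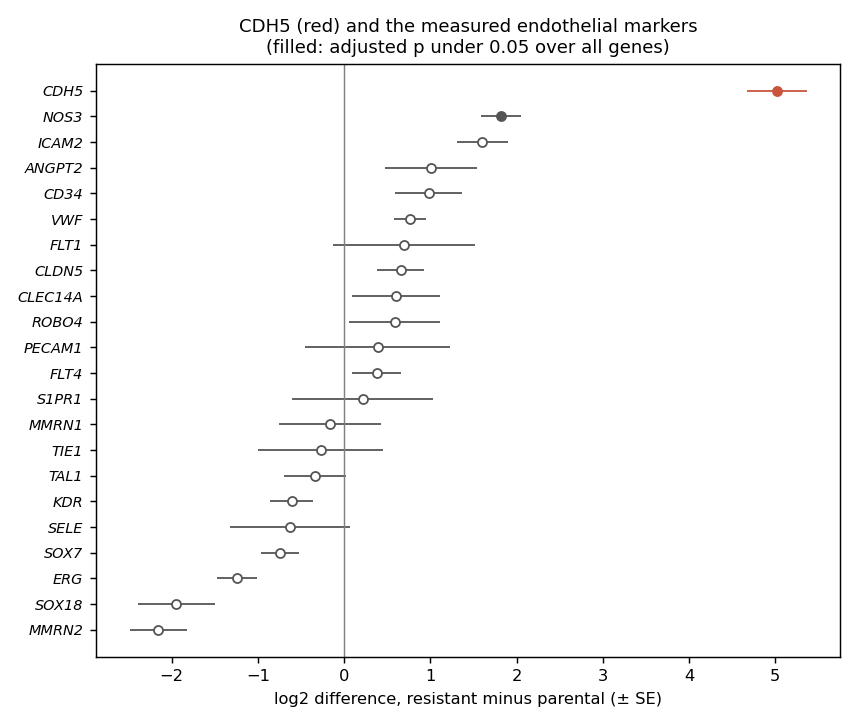
Log2 difference, resistant minus parental, with its standard error, for CDH5 (red) and the 21 measured endothelial markers; filled points passed the test over all genes. CDH5 lies at 5.02 and NOS3, the next highest, at 1.82, with the others spread on both sides of 0 down to -2.15 for MMRN2.

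E-cadherin RNA was not lower in the resistant cells, and cadherin protein was not measured. CDH1 read 4282 and 4434 in the parental arrays and 7129 and 7636 in the resistant arrays. Both resistant arrays were above both parental arrays, and the replicates of each group lay within 0.10 of each other on the log2 scale. The difference was 0.76 ± 0.18, a 1.69-fold higher mean with a 95% interval from 1.19 to 2.40, and it did not pass over all genes (adjusted p = 0.0948). Under the trended prior it was higher (0.76 ± 0.12, adjusted p = 0.0035, and between 0.0129 and 0.0232 with each array left out), as it was when genes with a mean log2 under 6 were left out (adjusted p = 0.0459). In that setting 18% of 11751 genes passed, 9.12% higher and 8.92% lower; 6 members were kept, of which CDH5 entered through its resistant arrays alone, so their calls are not counted against these shares.

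P-cadherin RNA did not pass. CDH3 read 10195 and 13917 in the parental arrays and 8256 and 10191 in the resistant arrays. The groups only just failed to overlap, since the higher resistant and the lower parental array differed by 0.00055 on the log2 scale. Its difference of -0.38 ± 0.26 (95% interval -1.11 to 0.36, adjusted p = 0.422) was smaller than the gap of 0.45 between the parental replicates. It was -0.60 without parental replicate 1, -0.15 without parental replicate 2 and -0.23 without resistant replicate 1.

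N-cadherin RNA did not pass either. CDH2 read 157 and 148 in the parental arrays and 191 and 269.9 in the resistant arrays. Both resistant arrays were above the parental ones, and the resistant replicates differed from each other by 0.50 on the log2 scale. The difference was 0.57 ± 0.25 (95% interval -0.14 to 1.28, adjusted p = 0.245, and 0.337 under the trended prior), and 0.32 without resistant replicate 2. The interval includes rises of up to 2.42-fold, so these arrays do not settle whether CDH2 changed.

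A ratio of cadherins within an array is free of any constant factor per array, though not of quantile normalization. The ratio of CDH1 to CDH3 was 2.20 times as high in resistant as in parental arrays, and the 4 pairings of a resistant with a parental array gave 1.78 to 2.71 times. The ratio of CDH1 to CDH2 changed by 1.14 times, with pairings from 0.946 to 1.37 times, 3 of 4 above 1. No test of these ratios was run.

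Among the EMT transcription factors none rose or fell in the test over all genes. TWIST1 read 319 and 383 in the parental arrays and 614 and 701 in the resistant arrays, so both resistant arrays were above both parental ones. The difference was 0.91 ± 0.21, or 1.88-fold (95% interval 1.25 to 2.83, adjusted p = 0.0918). Under the trended prior TWIST1 was higher (adjusted p = 0.0257), but this call was lost without parental replicate 1 (adjusted p = 0.0693), resistant replicate 1 (0.104) or resistant replicate 2 (0.199), and held without parental replicate 2 (0.0359).

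SNAI1, which encodes SNAIL, read 102 and 104 in the parental arrays and 202 and 125 in the resistant arrays. The resistant replicates differed by 0.70 on the log2 scale, more than the difference of 0.62 ± 0.30 between the groups (adjusted p = 0.281). Without resistant replicate 1 that difference was 0.27 and without resistant replicate 2 it was 0.97.

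SNAI2, which encodes SLUG, did not pass. It read 72.9 and 69.8 in the parental arrays and 52.7 and 28.8 in the resistant arrays. Both resistant arrays were below both parental arrays, with a difference of -0.87 ± 0.36 (adjusted p = 0.218) that was about as large as the gap of 0.87 between the resistant replicates. Without resistant replicate 1 the difference was -1.31, and without resistant replicate 2 it was -0.44.

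ZEB2, a zinc-finger repressor, read 50.2 and 58.4 in the parental arrays and 33.7 and 35.1 in the resistant arrays. Its replicates were close, and both resistant arrays were lower. The difference of -0.66 ± 0.19 did not pass (adjusted p = 0.132, and 0.485 under the trended prior). For the 500 genes nearest in mean, the SD of the difference between replicates was 1.19 in parental and 1.04 in resistant arrays, wider than the gaps of 0.22 and 0.06 between the ZEB2 replicates. The same SD was 0.247 and 0.237 for genes as bright as CDH1.

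**Figure D3:**
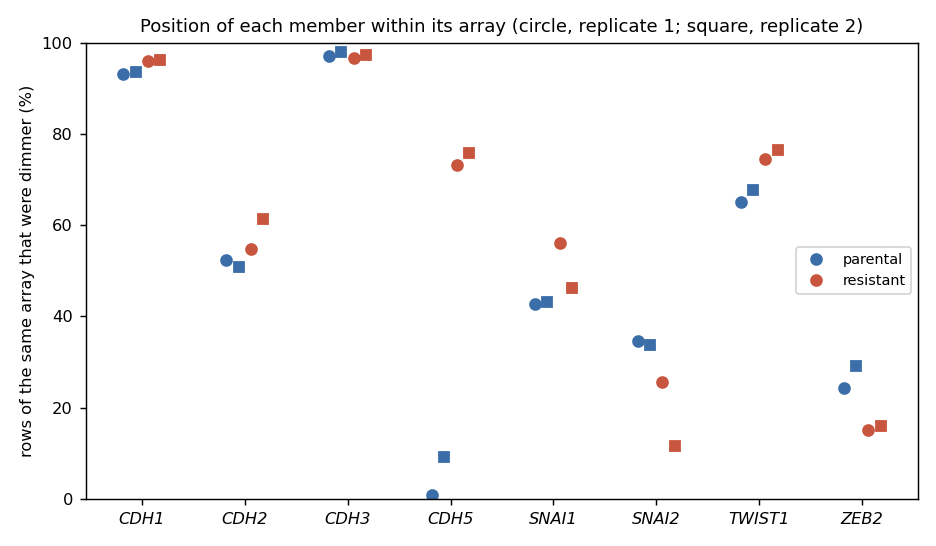
Share of the rows of the same array that were dimmer than each member, in percent, for parental (blue) and resistant (red) arrays, circles for replicate 1 and squares for replicate 2. CDH1 and CDH3 lie above 90% on all 4 arrays, ZEB2 and SNAI2 lie between 11.6% and 34.6%, and CDH5 moves from under 10% to above 70%.

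Counted together, 1 of the 8 measured members passed over all genes, against 6.1% of all 15073 genes (3.26% higher, 2.83% lower). At an unadjusted p under 0.05, 3 members were higher and 1 lower, where 28.2% of all genes lay under it. With the trended prior 3 of 8 were higher (CDH5, CDH1 and TWIST1) and 0 lower, where 21.5% of all genes passed, 9.93% higher and 11.5% lower. Over all rows with that prior 2 members passed (CDH5 and CDH1), against 9.39% of rows. In all 8 members the arrays of the groups did not overlap, 5 higher and 3 lower, but this was so for 59% of all genes (27.9% higher, 31% lower). An absolute difference of 1 or more was seen in 1 member, CDH5, and in 19.9% of all genes. The median difference of the 8 members was 0.59 and their median absolute difference 0.71, against -0.03 and 0.48 over all genes. Apart from CDH5, each member was exceeded in absolute difference by between 23.4% (TWIST1) and 59.6% (CDH3) of all genes.

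**Figure D4:**
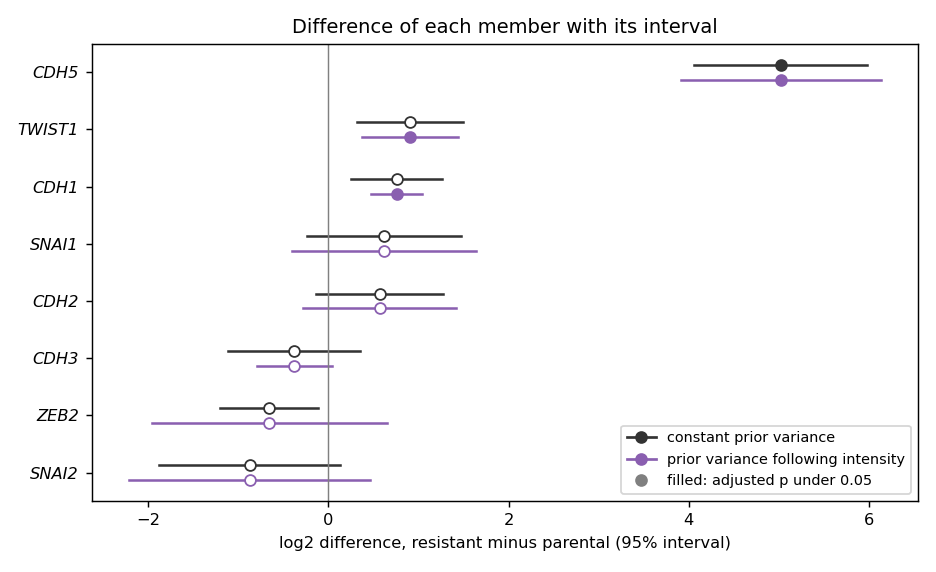
Log2 difference, resistant minus parental, of the 8 members with 95% intervals from limma, under a constant prior variance (black) and under a prior variance following intensity (purple); filled points had an adjusted p under 0.05. The trended prior narrows the interval of the bright CDH1 and CDH3 and widens that of the dim ZEB2 and SNAI2.

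The lists that follow give the surroundings of the members, to be read against 6.1% of all genes passed, or 21.5% under the trended prior, and 0 of their genes passed with any 1 array left out under the constant prior. Among other cadherins, of 18 listed, 11 were measured, of which CDH4 rose, 0 fell and 10 did not pass (median difference 0.17). CDH4 encodes R-cadherin, a close relative of N-cadherin, and read 152 and 180 in the parental and 495 and 423 in the resistant arrays. It rose by 1.47 ± 0.21 (adjusted p = 0.047), its 2 resistant arrays well above the parental ones. CDH13, which encodes a cadherin anchored without a cytoplasmic tail, read 785 and 830 in the parental and 473 and 582 in the resistant arrays, with a difference of -0.62 ± 0.21 (adjusted p = 0.159). CDH17 read 25.9 and 18.1 in parental and 249 and 39.3 in resistant arrays, and CDH20 was high in resistant replicate 1 alone (123, against 27.3 to 28 in the other arrays); neither passed.

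Catenins, nectins and other genes of the adherens junction, taken as 1 list, had differences in both directions. Of 17 measured catenin and adherens junction genes, NECTIN1 fell, 0 rose and 16 did not pass (median difference 0.03, and -0.04 to 0.06 under other scalings). NECTIN1, an adhesion receptor that works beside cadherins, read 9958 and 11553 in parental and 2802 and 2272 in resistant arrays, a difference of -2.09 ± 0.22 (adjusted p = 0.0298). Its relatives did not pass and differed in both directions, with NECTIN4 at -1.43 ± 0.23 (adjusted p = 0.0539), NECTIN3 at 1.36 ± 0.21 (adjusted p = 0.0501) and NECTIN2 at 0.98 ± 0.18 (adjusted p = 0.0649). Under the trended prior 5 of the 17 genes were higher and 3 lower. Among 7 measured genes of cadherin shedding and turnover, PTPRM, a receptor phosphatase found at cell contacts, rose by 2.00 ± 0.23 (adjusted p = 0.0337), 0 fell and 6 did not pass (median difference -0.37), with 1 higher and 1 lower under the trended prior. PTPN1 had a difference of -0.59 ± 0.24, ARF6 of -0.51 ± 0.25 and SRC of -0.37 ± 0.20.

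Of 15 measured further transcription factors linked to EMT, 4 rose, 2 fell and 9 did not pass (median difference 0.37), with 6 higher and 2 lower under the trended prior. SOX4 rose by 3.37 ± 0.19 (adjusted p = 0.0165), ETS1 by 2.92 ± 0.19 (adjusted p = 0.0168; 3.85 in its other row), SOX9 by 1.37 ± 0.18 (adjusted p = 0.0403) and GSC by 1.72 ± 0.26 (adjusted p = 0.0491), although under the trended prior GSC had an adjusted p of 0.0756. The forkhead factors FOXQ1 and FOXC1 fell, with differences of -2.24 ± 0.23 (adjusted p = 0.0291) and -1.58 ± 0.22 (adjusted p = 0.0427). FOXC1 and GSC stand outside the rule for named genes and are given to complete the count.

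Regulators of the epithelial state, which oppose EMT factors, had a median difference of -0.85. Of 12 measured, 2 fell, 0 rose and 10 did not pass, and under the trended prior 6 were lower and 1 higher. KLF5 fell, with a difference of -2.07 ± 0.28 (adjusted p = 0.041). GRHL2, an activator of CDH1, was at -1.65 ± 0.27 (adjusted p = 0.0558; trended prior, 0.000627) and OVOL1 at -1.39 ± 0.28 (adjusted p = 0.0757). The squamous markers, 9 of 14 lower as given above, moved with these genes, and their part in this result was not tested.

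Genes through which SNAIL and ZEB proteins act, or are degraded, had medians of 0.05 and 0.10. None of 20 measured co-repressor genes passed limma's test over all genes (median difference 0.05, which ran from -0.03 to 0.03 under other scalings). At an unadjusted p under 0.05, 4 were higher and 2 lower, near the 28.2% of all genes that lay under it. Under the trended prior 4 were higher and 5 lower, so the count of 0 is tied to the constant prior. The smallest p belonged to LOXL2, a lysyl oxidase that stabilises SNAIL, with 1.08 ± 0.19 (adjusted p = 0.0611). The next 3 were RCOR1 at -0.94 ± 0.19, CTBP2 at 0.86 ± 0.19 and SMARCA4 at 0.61 ± 0.18. None of 15 measured genes of SNAIL protein stability passed (median difference 0.10). At an unadjusted p under 0.05, 1 was higher and 2 lower, against the same 28.2% of all genes. Under the trended prior 1 was higher and 1 lower, where 21.5% of all genes passed. CSNK1E was at 1.03 ± 0.20 (adjusted p = 0.0694) and BTRC, a ubiquitin ligase subunit that marks SNAIL for degradation, at -0.77 ± 0.20 (adjusted p = 0.105). SNAIL is controlled to a large part as a protein, which these arrays do not measure.

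Of 11 measured genes of the TGF-beta pathway, inducers and inhibitors together, 1 rose, 0 fell and 10 did not pass (median difference 0.59). The 1 that rose was TGFB2, a ligand that induces SNAI and ZEB genes in many epithelia, by 4.16 ± 0.54 (adjusted p = 0.0397). TGFB3 differed by 0.96 ± 0.18 (adjusted p = 0.0683), SMAD3, a signal transducer, by 1.03 ± 0.20 (adjusted p = 0.0704) and the receptor gene TGFBR2 by 1.02 ± 0.25 (adjusted p = 0.102). Under the trended prior 4 of the 11 were higher and 0 lower.

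Epithelial genes known as targets of SNAIL or ZEB repression went both ways. Of 15 measured, 2 rose, 2 fell and 11 did not pass (median difference 0.25), while under the trended prior 6 were higher and 3 lower and 11 of the 15 differences were above 0. CLDN3, a tight-junction claudin, rose by 2.66 ± 0.19 (adjusted p = 0.0177) and ST14, a membrane protease of epithelia, by 1.50 ± 0.18 (adjusted p = 0.0348). The desmosome genes DSP and PKP3 fell, with differences of -3.11 ± 0.18 (adjusted p = 0.0165) and -1.94 ± 0.18 (adjusted p = 0.0242).

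Of 20 listed mesenchymal genes 17 were measured, while VIM (vimentin), MMP2 and MMP9 had no named row. Of the 17 measured, 3 rose, 0 fell and 14 did not pass (median difference 0.45), with 6 higher and 0 lower under the trended prior. SPARC and FN1, which encode a matrix glycoprotein and fibronectin, rose by 3.62 ± 0.20 (adjusted p = 0.0165) and 2.89 ± 0.22 (adjusted p = 0.0196; its 3 rows ranged from -0.03 to 2.89), and COL5A1 by 1.70 ± 0.25 (adjusted p = 0.0482; 0.0559 under the trended prior). AXL, a receptor kinase, differed by 1.41 ± 0.22 (adjusted p = 0.0501). Of 7 measured fibroblast markers 1 rose, COL1A1 by 3.23 ± 0.26, and 6 did not pass (median difference -0.26). The summed intensity of these 7 was 395 to 540.0 in parental and 1773 to 2097 in resistant arrays, with COL1A1 at 1846 and 1546 in the latter. DCN read 49.2 and 52.6 in parental and 32.6 and 35.9 in resistant arrays, a difference of -0.57 ± 0.19. PDGFRB read 43.3 and 24.2 in parental and 72.7 and 54.5 in resistant arrays, a difference of 0.96 ± 0.38. COL3A1 differed by -0.54 ± 0.39. DCN, PDGFRB and COL3A1 did not pass and lay below the median of each array. The part of fibroblast RNA in the mesenchymal result was not tested. Of the 5 listed EMT-linked non-coding transcripts 1 was measured, SNAI3-AS1, at 1.04 ± 0.30 (adjusted p = 0.13).

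**Figure D5:**
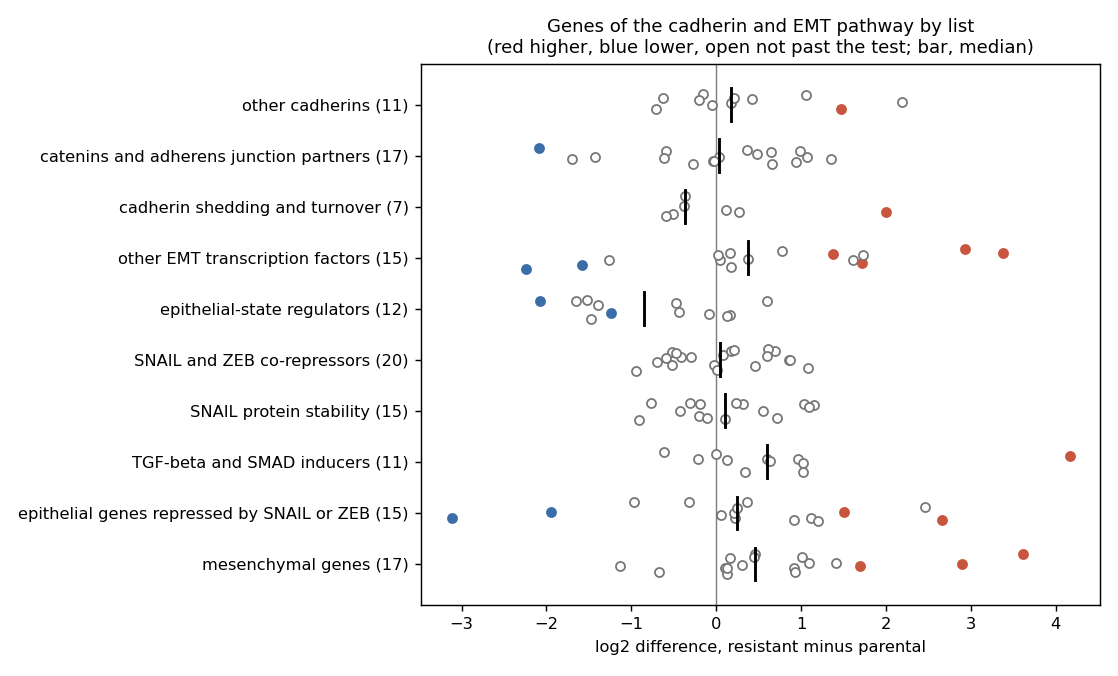
Log2 difference, resistant minus parental, of the measured genes in 10 pathway lists (number measured in brackets), red for genes that rose, blue for genes that fell, open for genes that did not pass, with a bar at each median. The medians lie between -0.85 for the epithelial-state regulators and 0.59 for the TGF-beta and SMAD genes.

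CDH1 and CDH3 lie near each other on chromosome 16, with 1 pseudogene between them among the genes RefSeq names, and CDH5 lies on the same chromosome. Within 3 named genes of CDH1 or CDH3, the measured neighbours were ZFP90, at 0.31 ± 0.27 (adjusted p = 0.527), and TANGO6, at 0.07 ± 0.60 (adjusted p = 0.954), besides the cadherins themselves. Of the 6 named genes beside CDH5, 0 had a named row. The labelling copied both strands, so an antisense transcript such as CDH3-AS1 could not be told apart from CDH3 where a probe lay in sequence shared by both. Probe positions were not examined.

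Genes whose values over the 4 arrays were most like those of CDH5, by the Euclidean distance of log2 values centred per gene, were TMPRSS2 (distance 0.467), CCND2 (0.481), PLEKHB1 (0.538), TUBA1A (0.566) and SAA4 (0.587). TMPRSS2 encodes a serine protease of epithelial membranes, with a difference of 4.66 ± 0.23, and CCND2 encodes cyclin D2, with a difference of 5.17 ± 0.19. PLEKHB1 was at 4.51 ± 0.30, TUBA1A, an alpha-tubulin, at 4.55 ± 0.30 and SAA4, a serum amyloid A protein, at 4.58 ± 0.20. The likeness rests on 4 arrays, and the measure takes in the size of the rise.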

How the data were processed

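Per the submitters' processing notes the authors used RMA, which corrects background, equalises arrays and summarises probes; its version, the row filter and the genome build are not given in the sources used here. The deposited values are normalized intensity values, linear by their range, for 4 one-colour arrays made, per the labels' protocols, from oligo-dT-primed double-stranded cDNA labelled with Cy3. They hold no detection calls, so dim values have no stated bound and their folds are nominal; the number of arrays limits the precision.

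Intensities were taken to log2 without further normalization. Symbols came from the platform annotation (17899 rows) or, by RefSeq accession, from the GRCh38.p14 gene table (674 rows). The row with the highest mean stood for a gene; 2816 of 15073 genes had more than 1 row. Resistant and parental arrays were set against each other in limma (version 3.58.1, R 4.3.3), using lmFit and eBayes with 1 variance prior for every gene and group as the sole term. P-values were adjusted by Benjamini and Hochberg's method across the 15073 genes, with calls at 0.05. Differences carry moderated standard errors. The fits were tested on simulated data.

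Named genes were all members, up to 4 genes of smallest p in each of 15 lists, the 5 genes nearest in pattern to a member past the threshold, and 3 neighbours on each side of CDH1, CDH3 and CDH5. KDR, PECAM1, SOX7, FOXC1, GSC and KRT5 were named after their values were seen. A few list genes within this rule go unreported. The members and lists were chosen with earlier results of these data known. Alternatives covered the prior, scaling, offset, dim rows, rows per gene, a replicate block and left-out arrays.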

Additional observations from a re-analysis of the deposited data

How the results depend on the processing

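No member changed direction in 166 values under up to 21 alternatives each, but only a rescaling of the arrays could have reversed one. The groups of arrays did not overlap in any member, so a left-out array or the offset could not reverse it. The remaining alternatives kept the same difference. Of the 166 values, 146 kept their side of the threshold, 8 lost it (all CDH5) and 12 gained it (8 for CDH1, 4 for TWIST1). The counts moved more. Over all genes, 919 passed (492 higher, 427 lower), against 3234 with the prior variance following intensity and 2120 when genes with a mean log2 under 6 were left out; of the members 1 passed, against 3 in each of these settings, although CDH5 is kept by the filter on dim genes only through its resistant arrays. With all rows tested together the counts were 0 rows and 0 members, and jointly under the trended prior 3960 rows and 2 members. The unmoderated test with unequal variances gave 0 genes and 0 members (13.3% of genes at an unadjusted p under 0.05). With each array left out in turn, where 1 residual degree of freedom remains and the lone array is assumed to vary like the other group, 0 genes, 0 members and 0 pathway genes passed (16.8% to 26.8% of genes at an unadjusted p under 0.05). The same under the trended prior, chosen after seeing the data, gave 2797 and 2404 genes without parental replicates 1 and 2 and 1899 and 1970 without resistant replicates 1 and 2, with 2 to 3 members and, in that order, 50, 44, 39 and 35 pathway genes. With all arrays 19 pathway genes passed, against 56 under the trended prior. Centring on the median gave 458 higher and 507 lower genes, against 507 and 466 on the 75th percentile and 505 and 453 after quantile normalization.

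Replicate numbers do not pair the samples by the labels, and deviations of same-numbered arrays correlated at 0.142. With a replicate block 0 genes and 0 members passed (25.8% of genes at an unadjusted p under 0.05); with the block and the trended prior 3500 genes and 3 members did. A crossed replicate block, added after seeing the data, gave 0 and 0 (22.2%). CDH5 had an adjusted p of 0.0804 with the replicate block and of 0.102 with the crossed one. The causes of these shifts were not tested. The lack of detection calls limits what can be said of dim members, CDH5 in the parental arrays, SNAI2 and ZEB2.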

Other observations

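None of 10 measured leukocyte markers passed limma's test over all genes (median difference 0.22). At an unadjusted p under 0.05, 2 were higher and 1 lower, where 28.2% of all genes lay under it. Under the trended prior 2 were higher and 0 lower, where 21.5% of all genes passed. LCP1 was at 1.27 ± 0.22 (adjusted p = 0.058), LAPTM5 at 1.32 ± 0.30 and ITGAM at -0.65 ± 0.27. The summed intensity of the 10 markers was 4717 to 5113 in parental and 5075 to 5437 in resistant arrays.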
